A study of Mus musculus with 6 samples.

Results

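Among the genes that lipopolysaccharide (LPS) lowered in mouse macrophages, 75 had a higher level when the deacetylase inhibitor trichostatin A (TSA) was given with LPS. They are 75 of 8841 genes with a named probe. They were chosen by their own values on 5 of the 6 arrays: a level at or above the array median in No treatment, a fall of at least 1.7-fold from No treatment in both GW3965 + LPS and LPS, and a gain with TSA of at least 1.4-fold in both LPS pairs (TSA + GW3965 + LPS over GW3965 + LPS, TSA + LPS over LPS). Differences between these 5 arrays that the choice used are therefore descriptions and carry no test. H1f2 and genes whose symbols start with Slc, Zfp, Cdk, Mcm, Gpr, Rab, Il, Tnfrsf, Ptp or Map were left out. The sixth array, TSA without LPS, played no part in the choice.

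The cells were thioglycollate-elicited macrophages, inflammatory cells that a sterile irritant draws into the peritoneal cavity, from female C57BL/6 mice aged 6 weeks. Their total RNA was amplified and read on 1-colour arrays, 1 array for each of 6 groups: TSA + GW3965 + LPS, TSA + LPS, GW3965 + LPS, LPS, TSA and No treatment. TSA blocks histone deacetylases, the enzymes that remove acetyl groups from histones and other proteins. LPS is the bacterial cell wall component sensed by Toll-like receptor signalling, and GW3965 activates the liver X receptors, which sense oxysterols. The labels give no dose, time or order of addition, and do not say whether animals were pooled or whether the arrays share a culture. With 1 array a group, the difference between 2 arrays has no replicate error. Levels are in array units, in which the median of every array lay between 0.981 and 0.987, and were raised to each array's 25th percentile (0.198 to 0.245 units) before a ratio was taken. Among the 75 genes this touched 1 value, that of Tpra1 in GW3965 + LPS. The small number of arrays sets the precision.

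Activated macrophages do not only switch inflammatory genes on. They also lower many genes of the resting state, such as receptors that damp activation, enzymes of mitochondrial metabolism and regulators of transcription. Acetylation of histones generally goes with active promoters, but inhibitors of deacetylases lower as well as raise genes, and deacetylases act on many proteins other than histones. In bulk RNA, fewer cells of a type and less RNA per cell cannot be told apart.

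On the array that the choice did not use, most of the 75 genes stood higher with TSA than without it, although no LPS was present. Of the 75 genes, 58 were higher in TSA than in No treatment and 17 lower. At least 1.4-fold higher were 38 genes, and 3 were at least 1.4-fold lower. Of the 4293 named probes at or above the median in No treatment, 22% were at least 1.4-fold higher and 17.8% at least 1.4-fold lower. The median log2 difference between TSA and No treatment was 0.50 in the 75 genes and 0.02 in all 4293. It was -0.44 over the 241 probes that met the LPS criterion but missed the TSA criterion. Among these 241 probes, TSA lay 1.4-fold or more above No treatment for 15 and that far below for 119. These sets share the No treatment array, whose high readings entered the choice of both LPS-lowered sets, and no test was made between them.

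**Figure D1:**
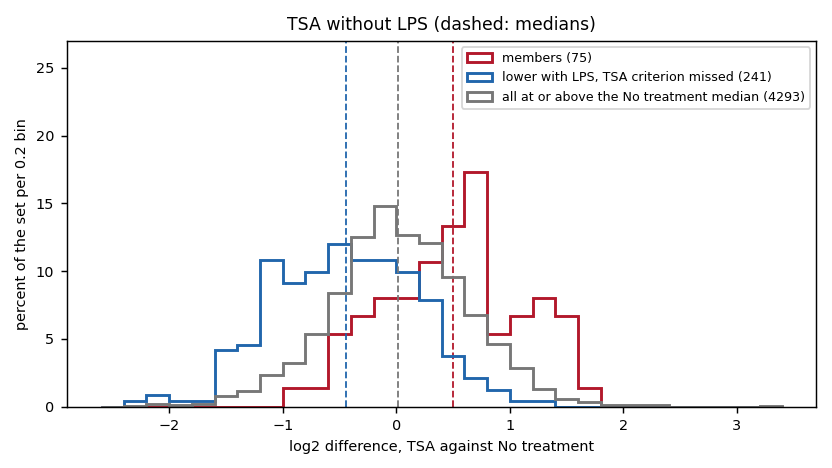
Distribution of the log2 difference between TSA and No treatment, as percent of each set per bin, for the 75 genes, for 241 probes that met the LPS criterion but missed the TSA criterion, and for all 4293 named probes at or above the No treatment median. Dashed lines are medians, at 0.50, -0.44 and 0.02.

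The TSA array held the highest reading of 54 of the 75 genes, TSA + GW3965 + LPS of 2, TSA + LPS of 5 and No treatment of 14. The lowest was in LPS for 50 genes and in GW3965 + LPS for 25. The choice required this among the 5 arrays it used, but not against the TSA array, which was lowest for 0 genes. Across the 75 genes the median difference between LPS and No treatment was -1.53 on the log2 scale, and between GW3965 + LPS and No treatment -1.35. With TSA the median difference was 1.23 in the LPS pair and 1.04 in the GW3965 + LPS pair. These 4 medians restate the choice, and 7.36% of the 4293 probes met its LPS part and 9.48% its TSA part. Recovery is used below for the TSA gain as a percent of the LPS fall, both on the log2 scale and averaged over both pairs. It had a median of 80.5% and a range of 31.7% to 201%. It was under 50% in 17 genes, 50% to 100% in 34 and at least 100% in 24, so by this measure the return was partial in most but not in all of them. The choice set a least size for both the gain and the fall, and the LPS and GW3965 + LPS readings enter both. Recovery is therefore a description too. In TSA + GW3965 + LPS 21 genes and in TSA + LPS 24 genes stood above No treatment.

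**Figure D2:**
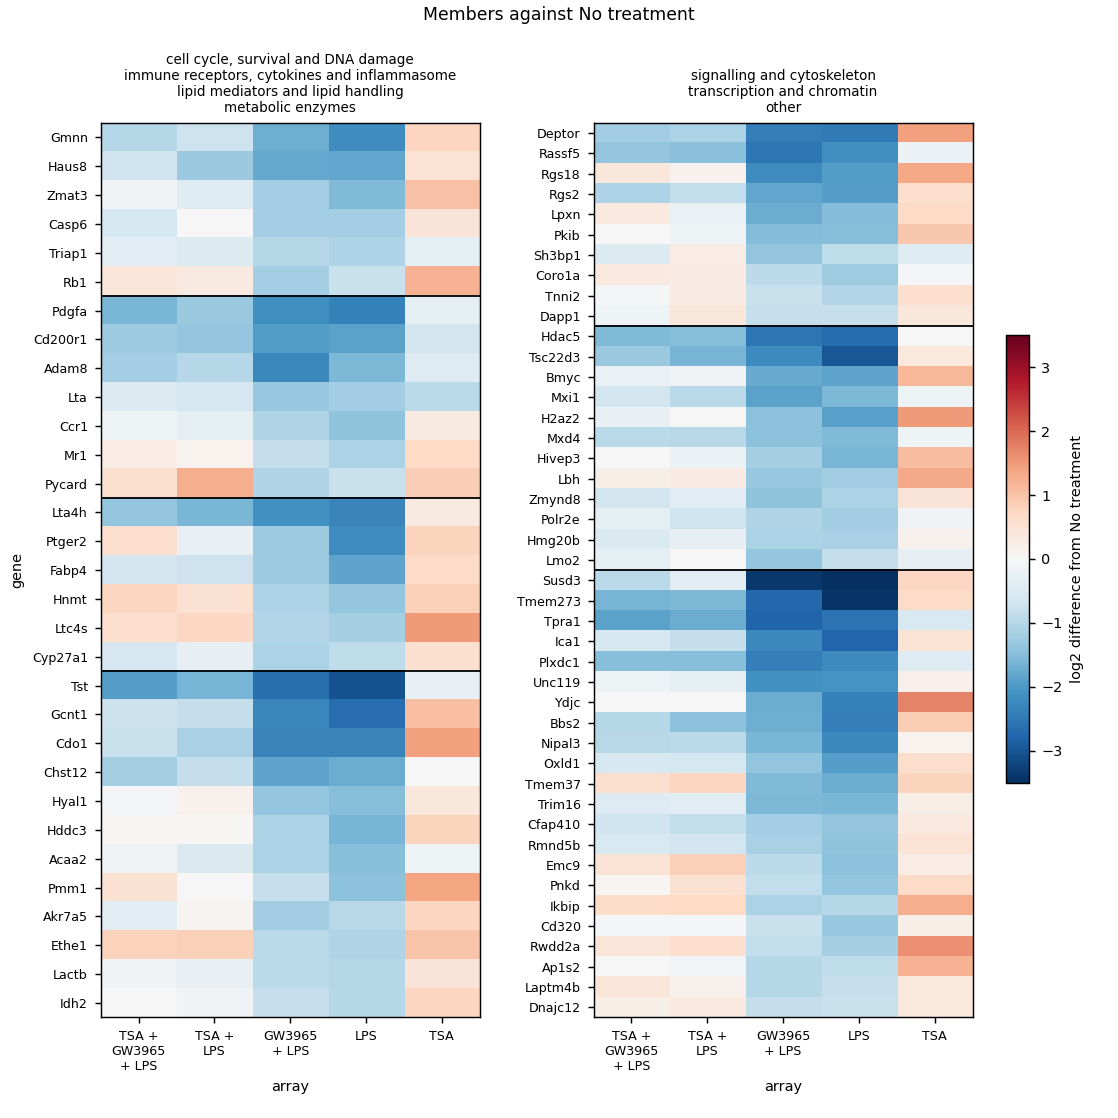
Log2 difference of each of the 75 genes from No treatment on the other 5 arrays, with red for higher and blue for lower. Genes are grouped by known function from top to bottom in the order of each panel's title, with black lines between groups. The LPS and GW3965 + LPS columns are blue throughout because the genes were chosen so.

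Promoter sequences of 5 of the genes are printed first, since they stand for the extremes of the pattern: Susd3 for the largest fall and the largest gain, Tsc22d3 and Hdac5 as regulators with a deep fall and a partial return, and Ltc4s and Pycard for recoveries above 100%. They run from 250 bases before to 50 bases after a RefSeq gene start on GRCm38.p6, are written 5′ to 3′ on the gene's strand, and carry in capitals the motifs that a search on both strands found. Susd3 (chr13:49248245-49248544, minus strand) has a CCAAT box and AGGTCA, a core motif of nuclear receptors. Tsc22d3 (chrX:140542619-140542918, minus strand) has a GC box, GGGCGG. Hdac5 (chr11:102230123-102230422, minus strand) has CCAAT boxes, a GC box, an E-box (CACGTG) and TAAAAATA, a MEF2 motif. In Ltc4s (chr11:50238483-50238782, minus strand) none of the 14 motifs was found. Pycard (chr7:127993818-127994117, minus strand) has GAGGAAGT, a PU.1 motif, 44 bases before the start, and a GC box after it.
Susd3: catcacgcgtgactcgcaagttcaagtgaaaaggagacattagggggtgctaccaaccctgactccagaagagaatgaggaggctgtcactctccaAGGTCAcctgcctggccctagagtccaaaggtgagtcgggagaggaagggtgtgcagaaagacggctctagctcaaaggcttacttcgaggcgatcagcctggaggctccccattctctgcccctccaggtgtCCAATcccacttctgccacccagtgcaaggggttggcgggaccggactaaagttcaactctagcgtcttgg
Tsc22d3: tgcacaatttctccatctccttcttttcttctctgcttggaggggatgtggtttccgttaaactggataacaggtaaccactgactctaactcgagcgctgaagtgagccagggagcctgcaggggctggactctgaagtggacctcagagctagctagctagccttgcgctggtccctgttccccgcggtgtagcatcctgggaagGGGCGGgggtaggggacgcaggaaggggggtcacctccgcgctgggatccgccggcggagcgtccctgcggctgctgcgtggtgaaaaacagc
Hdac5: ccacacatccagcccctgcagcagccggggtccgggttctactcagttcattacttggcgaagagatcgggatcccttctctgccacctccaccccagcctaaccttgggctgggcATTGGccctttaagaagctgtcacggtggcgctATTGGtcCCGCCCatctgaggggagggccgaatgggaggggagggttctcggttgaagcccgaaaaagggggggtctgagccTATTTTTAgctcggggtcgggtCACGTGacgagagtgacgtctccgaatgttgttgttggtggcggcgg
Ltc4s: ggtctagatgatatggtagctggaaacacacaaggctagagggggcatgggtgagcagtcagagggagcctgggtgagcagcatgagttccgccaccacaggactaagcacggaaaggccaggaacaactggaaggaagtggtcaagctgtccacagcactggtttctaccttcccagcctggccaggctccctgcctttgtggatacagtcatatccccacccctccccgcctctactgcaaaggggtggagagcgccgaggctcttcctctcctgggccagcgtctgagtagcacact
Pycard: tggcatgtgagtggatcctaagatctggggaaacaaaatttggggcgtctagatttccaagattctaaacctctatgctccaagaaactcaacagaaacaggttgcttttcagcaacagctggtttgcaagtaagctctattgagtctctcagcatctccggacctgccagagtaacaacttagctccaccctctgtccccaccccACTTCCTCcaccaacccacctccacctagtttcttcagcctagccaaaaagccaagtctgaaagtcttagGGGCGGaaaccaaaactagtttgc

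Promoters were on hand for 57 of the 75 genes, for 4141 of the 5080 genes used in the fit described below, and for 27025 genes in all. The GC box was found in 37 of the 57 promoters (64.9%), in 61.7% of those of fitted genes and in 35.9% of all. CCAAT was found in 22 (38.6%), 38.8% and 37.9%. The remaining motifs were rarer. AGGTCA was found in 7 (12.3%, against 13.4% of fitted genes). The E-box CACGTG was found in 5 (8.77%, against 11.4%). The TATA box, TATAAA, was found in 5 (8.77%, against 8.79%). The interferon response motif AAANNGAAA was found in 5 (8.77%, against 9.03%). AGAACA, a core motif of the glucocorticoid receptor, was found in 4 (7.02%, against 12.6% of fitted genes). GGGNNTTCC (NF-kB), GAGGAAGT (PU.1) and GCGCATGC (NRF1) were each found in 2 (3.51%), against 7.53%, 3.40% and 5.58%. TGACTCA (AP-1) and TAAAAATA (MEF2) were each found in 1 (1.75%), against 4.23% and 1.11%. TGACGTCA (CRE) and TTATGTAA (D-box) were found in 0, against 3.26% and 0.483%. No 2 different motifs overlapped in the 57 promoters. Their median GC content was 60.7%, that of fitted genes 60.3%, and the observed over expected CpG ratio had medians of 0.702 and 0.751. A match describes letters in a short window, and none of these shares was tested.

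The regulators of transcription and chromatin numbered 12. Tsc22d3, known as the glucocorticoid-induced leucine zipper, read 28.8 in TSA + GW3965 + LPS and 22.9 in TSA + LPS, against 15 in GW3965 + LPS and 8.84 in LPS. Without LPS it read 90.5 in TSA and 70.3 in No treatment. Every LPS array thus lay below both arrays without LPS, and recovery was 44.2%. Hdac5, a class IIa deacetylase that represses MEF2-driven genes, read 1.87 in TSA + GW3965 + LPS and 1.95 in TSA + LPS, against 0.942 in GW3965 + LPS and 0.844 in LPS. It read 5.47 in TSA and 5.44 in No treatment, so the readings were level without LPS, and 1.98-fold (GW3965 + LPS pair) and 2.31-fold (LPS pair) higher with TSA in its presence. The difference between these TSA effects was not tested. H2az2, a variant of histone H2A, read 20.5 in TSA + GW3965 + LPS and 24.3 in TSA + LPS, against 9.11 in GW3965 + LPS and 6.62 in LPS, and 69.0 in TSA against 24.7 in No treatment. Its level in TSA was the highest of the 6 arrays.

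Several antagonists and relatives of Myc stood among these regulators. Mxi1 and Mxd4, which compete with Myc for its partner Max, were 2.95-fold and 2.93-fold lower with LPS, recovered 53.9% and 36.0%, and lay within 1.4-fold of No treatment in TSA. Bmyc, a Myc relative, was 3.57-fold lower with LPS, recovered 89.8% and read 2.96 in TSA against 1.33 in No treatment. Lbh, a regulator known from limb and heart development, recovered 119% on the probe that met the criteria and read 3.96 in TSA against 1.56 in No treatment. Lmo2, an adaptor of blood cell transcription complexes, read 12.3 in TSA against 14.9 in No treatment and recovered 86.2%. Hmg20b, a subunit of a deacetylase complex with CoREST, recovered 64.9%, the chromatin reader Zmynd8 60.0% and Polr2e, a subunit shared by the RNA polymerases, 54.3%. The zinc finger factor Hivep3 recovered 92.4% on the probe that met the criteria. Of the 12 genes, 4 stood 1.4-fold or more above No treatment in TSA and 0 stood that far below, with a median difference of 0.25. Of all 75 genes 38 stood that far above and 3 that far below, and of the 4293 probes 22% and 17.8%. Groups by function were set after the values were seen, so the counts and medians of this and the later groups are descriptions.

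**Figure D3:**
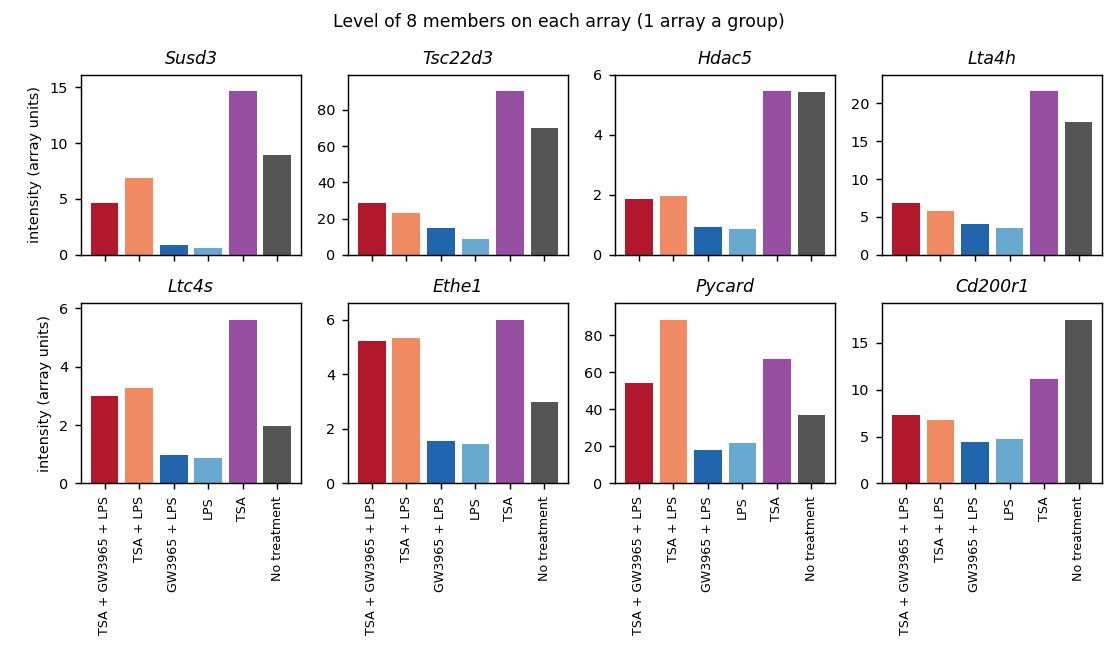
Level in array units of 8 of the genes on each array, 1 array a group, with bars from 0. Hdac5 and Lta4h stay low in both arrays with TSA and LPS (1.87 and 1.95, and 6.88 and 5.82), Ethe1 and Pycard lie above No treatment there, and Cd200r1 is lower in TSA (11.1) than in No treatment (17.5).

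Enzymes of both branches of leukotriene synthesis were among the genes. Lta4h, the hydrolase that makes leukotriene B4, read 6.88 in TSA + GW3965 + LPS and 5.82 in TSA + LPS, against 4.03 in GW3965 + LPS and 3.49 in LPS. It read 21.6 in TSA and 17.5 in No treatment, and recovery was 34.0%. Ltc4s, which makes the cysteinyl leukotriene C4, read 3 in TSA + GW3965 + LPS and 3.27 in TSA + LPS, against 0.967 in GW3965 + LPS and 0.888 in LPS. It read 5.61 in TSA and 1.98 in No treatment, and recovery was 160%. Both were lower with LPS, but Ltc4s ended above its untreated level and Lta4h well below. Ptger2, the prostaglandin E2 receptor EP2, read 3.44 in TSA + GW3965 + LPS and 1.94 in TSA + LPS, against 0.952 in GW3965 + LPS and 0.504 in LPS, and 3.93 in TSA against 2.30 in No treatment. Hnmt, which inactivates histamine, read 3.1 in TSA + GW3965 + LPS and 2.7 in TSA + LPS, against 0.874 in GW3965 + LPS and 0.729 in LPS, and 3.28 in TSA against 1.85 in No treatment, and recovered 154%. In Ptger2 and Hnmt the GW3965 + LPS and LPS readings were the lowest of the 6. The fatty acid-binding protein Fabp4 read 473 in TSA and 297 in No treatment and recovered 56.0%. Cyp27a1, the sterol 27-hydroxylase, recovered 56.4%. Of these 6 genes of lipid mediators, histamine and lipid handling, 5 stood 1.4-fold or more above No treatment in TSA. So did 38 of all 75 genes and 22% of the 4293 probes, and nothing is read from the count of so small a group.

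Of 12 metabolic enzymes, 3 belong to the mitochondrial and cytosolic handling of sulfur. Tst, a mitochondrial thiosulfate sulfurtransferase, read 4.75 in TSA + GW3965 + LPS and 5.89 in TSA + LPS, against 2.88 in GW3965 + LPS and 2.17 in LPS. It read 15 in TSA and 18 in No treatment. TSA thus went with a higher reading in the LPS pairs, as the choice required, and not in the pair without LPS. Ethe1, a persulfide dioxygenase of the same sulfide oxidation route, read 5.22 in TSA + GW3965 + LPS and 5.32 in TSA + LPS, against 1.57 in GW3965 + LPS and 1.44 in LPS. Its levels were 6.00 in TSA and 2.99 in No treatment, and its 182% recovery was among the 5 highest. Cdo1, the cysteine dioxygenase, read 0.820 in TSA + GW3965 + LPS and 0.639 in TSA + LPS, against 0.276 in both GW3965 + LPS and LPS, and 3.8 in TSA against 1.41 in No treatment. Its readings with LPS lay below the array median on all 4 arrays.

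Among the other enzymes, Gcnt1, which builds branched O-glycans, read 1.81 in TSA + GW3965 + LPS and 1.71 in TSA + LPS, against 0.629 in GW3965 + LPS and 0.489 in LPS, and 6.34 in TSA against 3.07 in No treatment, and recovered 67.6%. Idh2, the mitochondrial NADP-dependent isocitrate dehydrogenase, read 33.4 in TSA + GW3965 + LPS and 30.5 in TSA + LPS, against 19.0 in GW3965 + LPS and 16.8 in LPS, and 56.3 in TSA against 33.4 in No treatment, and recovered 92.8%. Acaa2, a thiolase of fatty acid oxidation, recovered 76.4% and read 21.3 in TSA against 24.2 in No treatment. Pmm1, a phosphomannomutase of glycan synthesis, read 1.86 in TSA + GW3965 + LPS and 1.28 in TSA + LPS, against 0.743 in GW3965 + LPS and 0.478 in LPS, and 3.38 in TSA against 1.29 in No treatment. Its recovery was 123%. The hyaluronidase Hyal1 and Hddc3, related to bacterial ppGpp hydrolases, recovered 103% and 104%. Akr7a5, an aldehyde reductase, recovered 86.7%, Lactb, a mitochondrial protein, 81.1% and the sulfotransferase Chst12 44.5%. Of the 12 enzymes 7 stood 1.4-fold or more above No treatment in TSA and 0 that far below, with a median difference of 0.76. Of all 75 genes, 38 stood that far above and 3 that far below.

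The 7 immune receptors, cytokines and inflammasome genes were the group with the lowest median difference between TSA and No treatment, at -0.32, and the other 6 groups had medians above 0. Cd200r1, an inhibitory receptor of myeloid cells, read 7.30 in TSA + GW3965 + LPS and 6.81 in TSA + LPS, against 4.47 in GW3965 + LPS and 4.78 in LPS. It read 11.1 in TSA and 17.5 in No treatment, and its recovery of 31.7% was the lowest of the 75. Lta, lymphotoxin alpha, read 2.09 in TSA + GW3965 + LPS and 1.91 in TSA + LPS, against 1.16 in GW3965 + LPS and 1.24 in LPS, and 1.51 in TSA against 2.90 in No treatment. In both genes TSA went with a lower level without LPS and a higher one with it, the latter as the choice required. Pdgfa, a growth factor for mesenchymal cells, read 7.3 in TSA + GW3965 + LPS and 9.03 in TSA + LPS, against 5 in GW3965 + LPS and 4.29 in LPS, and 17.7 in TSA against 22.2 in No treatment. Adam8, a membrane metalloprotease of leukocytes, read 8.83 in TSA + GW3965 + LPS and 10.1 in TSA + LPS, against 4.22 in GW3965 + LPS and 6.78 in LPS, and 14.7 in TSA against 20.1 in No treatment. These 2 genes recovered 35.8% and 42.9%, and both were highest in No treatment.

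The other 3 genes of the group stood higher in TSA. Pycard encodes ASC, the adaptor that links inflammasome sensors to caspase-1. It read 54.5 in TSA + GW3965 + LPS and 88.6 in TSA + LPS, against 17.9 in GW3965 + LPS and 21.7 in LPS, and 67.4 in TSA against 36.9 in No treatment. It had the highest recovery, 201%, from a fall that only just met the choice, 1.7-fold in LPS. Mr1, which presents vitamin B metabolites to T cells, recovered 120% and read 2.81 in TSA against 1.74 in No treatment. The chemokine receptor Ccr1 recovered 79.7% and read 17.4 in TSA against 14.1 in No treatment.

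In all, 6 genes act in cell cycle, survival or the response to DNA damage. Gmnn, or geminin, which blocks licensing of DNA replication, read 3.08 in TSA + GW3965 + LPS and 3.73 in TSA + LPS, against 1.88 in GW3965 + LPS and 1.37 in LPS, and 10.5 in TSA against 6.18 in No treatment. Rb1, the retinoblastoma protein that restrains entry into S phase, read 4.21 in TSA + GW3965 + LPS and 3.85 in TSA + LPS, against 1.35 in GW3965 + LPS and 1.81 in LPS, and 7.20 in TSA against 3.11 in No treatment. The choice required higher readings with TSA in the LPS pairs, and both genes were also higher with TSA in the pair without LPS. Zmat3, an RNA-binding target of p53, recovered 80.5% and was 2.05-fold higher in TSA than in No treatment, and Haus8, of the augmin complex of the spindle, recovered 44.8%. The executioner caspase Casp6 recovered 72.9%. Triap1, a p53-regulated survival factor, recovered 60.0% and read 4.51 in TSA against 5.61 in No treatment.

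In all, 10 genes act in signalling or on the cytoskeleton, among them a pair of regulators of G protein signalling. Rgs18 read 3.24 in TSA + GW3965 + LPS and 2.73 in TSA + LPS, against 0.537 in GW3965 + LPS and 0.637 in LPS, and 6.23 in TSA against 2.46 in No treatment. Rgs2 read 48.0 in TSA + GW3965 + LPS and 55.7 in TSA + LPS, against 28.6 in GW3965 + LPS and 26.6 in LPS, and 152 in TSA against 102 in No treatment. Rgs18 returned past its untreated level (113%) and Rgs2 did not (48.2%). Deptor, an inhibitor of mTOR, read 1.39 in TSA + GW3965 + LPS and 1.49 in TSA + LPS, against 0.603 in GW3965 + LPS and 0.582 in LPS, and 8.71 in TSA against 3.23 in No treatment. Pkib, an inhibitor of protein kinase A, recovered 94.4%, and the paxillin relative Lpxn 104%. Coro1a, an actin regulator of leukocytes, read 20.9 in TSA + GW3965 + LPS and 19.96 in TSA + LPS, above 15.5 in TSA and 16.3 in No treatment. Sh3bp1, which inactivates Rac, read 0.937 in TSA + GW3965 + LPS and 1.57 in TSA + LPS, against 0.501 in GW3965 + LPS and 0.713 in LPS, and 0.981 in TSA against 1.32 in No treatment, and recovered 89.6%. Both genes thus read lower in TSA than in No treatment. Dapp1, an adaptor of phosphoinositide signalling, and Tnni2, a troponin of fast muscle, recovered 116% and 113%, and the Rap1 effector Rassf5 recovered 39.3%.

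The remaining 22 genes have other or less settled roles and include the deepest falls. Susd3, a membrane protein with a sushi domain, read 4.63 in TSA + GW3965 + LPS and 6.87 in TSA + LPS, against 0.850 in GW3965 + LPS and 0.636 in LPS. It read 14.7 in TSA and 8.91 in No treatment. Tmem273, a membrane protein, read 2.60 in TSA + GW3965 + LPS and 2.73 in TSA + LPS, against 1.21 in GW3965 + LPS and 0.753 in LPS, and 12.9 in TSA against 8.06 in No treatment. Both were lowest in LPS and highest in TSA, but Susd3 regained 81.7% of its fall and Tmem273 48.1%. Ydjc read 2.1 in TSA + GW3965 + LPS and 2.13 in TSA + LPS, against 0.626 in GW3965 + LPS and 0.407 in LPS, and 7.03 in TSA against 2.1 in No treatment. Rwdd2a read 1.71 in TSA + GW3965 + LPS and 1.9 in TSA + LPS, against 0.696 in GW3965 + LPS and 0.57 in LPS, and 3.83 in TSA against 1.27 in No treatment. These 2 had the largest differences between TSA and No treatment of the 75 genes, 3.35-fold and 3.02-fold.

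Tmem37, related to calcium channel gamma subunits, read 4.35 in TSA + GW3965 + LPS and 4.92 in TSA + LPS, against 1 in GW3965 + LPS and 0.891 in LPS, and 5.02 in TSA against 2.94 in No treatment. Unc119, a chaperone of lipid-modified proteins, read 7.96 in TSA + GW3965 + LPS and 7.15 in TSA + LPS, against 2.09 in GW3965 + LPS and 2.13 in LPS, and 10.3 in TSA against 9.05 in No treatment. Ica1, a vesicle protein known as an islet autoantigen, read 1.82 in TSA + GW3965 + LPS and 1.48 in TSA + LPS, against 0.554 in GW3965 + LPS and 0.388 in LPS, and 3.71 in TSA against 2.66 in No treatment. Of these 3, Tmem37 recovered 140%, Unc119 87.5% and Ica1 72.3%.

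Emc9, a subunit of the endoplasmic reticulum membrane insertion complex, read 9.23 in TSA + GW3965 + LPS and 11.8 in TSA + LPS, against 3.52 in GW3965 + LPS and 2.46 in LPS, and 7.92 in TSA against 6.67 in No treatment. Ikbip, a membrane protein, read 2.63 in TSA + GW3965 + LPS and 2.71 in TSA + LPS, against 0.775 in GW3965 + LPS and 0.832 in LPS, and 4.08 in TSA against 1.67 in No treatment. Emc9 recovered 155% and Ikbip 164%, and both lay above No treatment in all 3 arrays with TSA. Tpra1, a putative membrane receptor, read 0.423 in TSA + GW3965 + LPS and 0.463 in TSA + LPS, against 0.222 in GW3965 + LPS and 0.256 in LPS, and 1.07 in TSA against 1.54 in No treatment. Plxdc1, a plexin domain protein, read 0.598 in TSA + GW3965 + LPS and 0.597 in TSA + LPS, against 0.324 in GW3965 + LPS and 0.363 in LPS, and 1.25 in TSA against 1.69 in No treatment. Tpra1 was at least 6.93-fold lower in GW3965 + LPS, where it was raised to the floor, and 6.01-fold lower in LPS than in No treatment. These 2 genes recovered 33.2% and 34.8% and were lower in TSA than in No treatment. Bbs2, of the ciliary BBSome, read 0.608 in TSA + GW3965 + LPS and 0.445 in TSA + LPS, against 0.372 in GW3965 + LPS and 0.232 in LPS, and 2.25 in TSA against 1.21 in No treatment. Bbs2 recovered 40.3%, and the other 10 genes of this group 39.5% to 132%, namely Ap1s2 of the AP-1 clathrin adaptor, the transcobalamin receptor Cd320, the lysosomal protein Laptm4b, the co-chaperone Dnajc12, Nipal3, Oxld1, Trim16, Cfap410, Rmnd5b and Pnkd.

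Many of the genes also read lower with LPS when TSA was present. Compared with TSA alone, the median log2 difference was -0.94 in TSA + GW3965 + LPS and -0.89 in TSA + LPS. Both arrays were at least 1.7-fold below TSA for 40 of the 75 genes, as for 4.96% of the 4293 probes, and for 101 of the 241 that missed the TSA criterion. These differences share both arrays with TSA and LPS with the choice, which asked for high readings there. Averaged over both arrays, the LPS difference had a median of -0.90 with TSA and -1.39 without it. In the 38 genes that TSA alone held 1.4-fold or more above No treatment these medians were -1.09 and -1.45, and 25 of the 38 were at least 1.7-fold below TSA in both arrays. In the 34 genes within 1.4-fold they were -0.62 and -1.29, and in 14 both arrays were that low. The TSA array sets this split and is also what the LPS arrays are compared with, so a high TSA reading gives a larger fall by construction, and nothing is read from the difference between the 38 and the 34 genes.

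Deptor and Cdo1 are examples from the 38 genes. Deptor stood 6.26-fold lower in TSA + GW3965 + LPS and 5.84-fold lower in TSA + LPS than in TSA, against 5.36-fold lower in GW3965 + LPS and 5.55-fold lower in LPS than in No treatment. Cdo1 stood 4.63-fold and 5.94-fold lower with TSA, against 5.09-fold and 5.10-fold without it. In both genes the LPS difference was about as large with TSA as without it, and the level was 2.70-fold higher in TSA than in No treatment. They do not stand for all of the 38. Averaged over both arrays, the LPS differences of Tmem37 and Hnmt, also of the 38, were -0.12 and -0.18 with TSA. Without TSA they were -1.64 and -1.21. Hyal1 and Coro1a are examples from the 34. Hyal1 was 1.38-fold and 1.2-fold lower with TSA, against 2.57-fold and 2.79-fold without it, and Coro1a was higher by 0.40 on the log2 scale with TSA and lower by a log2 difference of -1.07 without it. These examples do not stand for all of the 34 either. Tsc22d3 and Lta4h, also of the 34, had averaged LPS differences of -1.82 and -1.77 with TSA, against -2.61 and -2.22 without it. With 1 array in each cell of the design, the difference between the LPS responses has no test that is independent of the choice.

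**Figure D4:**
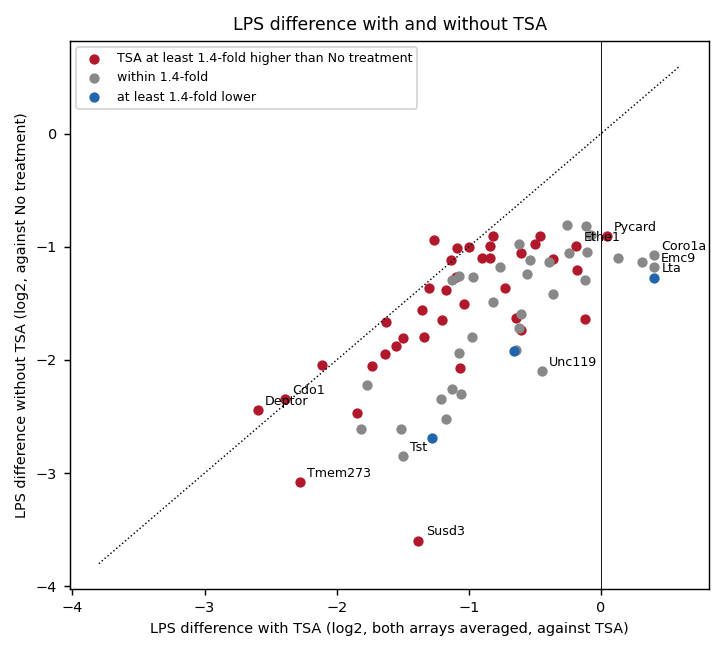
Log2 difference with LPS in the presence of TSA (horizontal, both arrays averaged, against TSA) and in its absence (vertical, both arrays averaged, against No treatment) for the 75 genes. The dotted line marks equal differences. Deptor and Cdo1 lie close to it, and Coro1a, Emc9 and Lta lie to the right of 0.

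The choice used all 4 arrays that this comparison rests on and asked the same of those with and without GW3965, which bounds the difference between them. A gene whose fall GW3965 undid could not be among the 75, so the values below are a description and not an independent test. In limma, 1 additive term each was fitted for GW3965, LPS and TSA over 5080 genes at or above the array median on at least 1 array, and 74 of the 75 were read from the probe that met the criteria (Hivep3 was read from its brighter probe and is not counted). By Benjamini-Hochberg adjusted p under 0.05 in limma, 0 of the 74 were called higher and 0 lower, and 1 had an unadjusted p under 0.05; nothing is read from these counts, since the choice limits them. Over all genes 3 (0.0591%) rose and 1 (0.0197%) fell. The GW3965 term was above 0 in 45 genes and below 0 in 29, with a median of 0.05 against 0.01 over all genes fitted, and a median SE of 0.29. Ptger2 stood farthest from 0, at 0.87 (SE 0.31, adjusted p = 0.9999, higher in 2 of 2 pairs), followed by Pmm1 at 0.59 (SE 0.29) and Bbs2 at 0.57 (SE 0.35). With the TSA + LPS array left out, Ptger2 passed the threshold, but that fit has fewer residual degrees of freedom and no call is read from it. On the other side were Sh3bp1 at -0.63 (SE 0.37), Pycard at -0.49 (SE 0.28) and Adam8 at -0.44 (SE 0.31). A p above the threshold does not show that GW3965 left these genes level, since the SE ran from 0.23 to 0.41 and rests on no replicates.

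**Figure D5:**
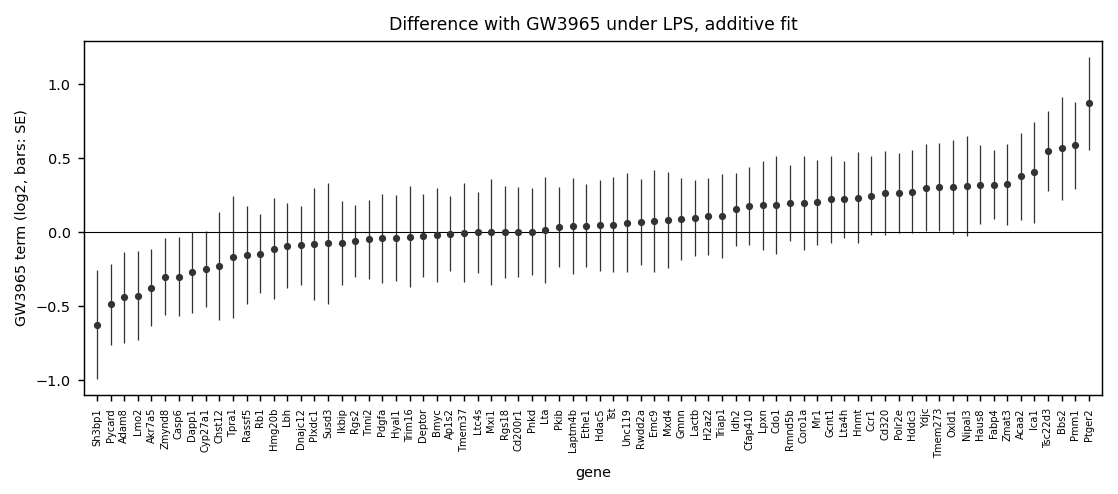
GW3965 term of the additive limma fit on the log2 scale for 74 genes, sorted, with bars of 1 standard error. The terms run from -0.63 for Sh3bp1 to 0.87 for Ptger2. The choice of genes used the same arrays and bounds these terms.

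Pathway neighbours were counted in the same fit, in which 12.3% of the 5080 genes rose and 7.11% fell with LPS, and 11% rose and 7.54% fell with TSA by limma's adjusted p under 0.05. Genes of the 75 that stand in a list are left out of its counts, since their LPS and TSA terms follow from the choice. The LPS term averages the LPS differences without and with TSA, and the TSA term averages the TSA pairs without and with LPS. These terms are thus not the fall and gain given for the 75 genes, and their p-values rest on no replicates. Of 18 enzymes of mitochondrial and sulfur metabolism other than Tst, Ethe1 and Idh2, 4 fell and 1 rose with LPS and 2 rose and 2 fell with TSA. Their median terms were -0.38 for LPS and 0.07 for TSA, against 0.03 and 0.01 over all genes. Idh1, the cytosolic relative of Idh2, fell with LPS by 2.10 and with TSA by 0.74 (SE 0.23, adjusted p = 0.031). Of 12 deacetylases, corepressors and acetyltransferases other than Hdac5, 1 rose with LPS, and 2 rose and 2 fell with TSA. The deacetylases Sirt1 and Hdac6 rose with TSA by 0.83 (adjusted p = 0.011) and 0.77 (adjusted p = 0.027), and the corepressor subunit Gps2 fell by 1.1 (adjusted p = 0.0075). Of 10 glucocorticoid-induced genes other than Tsc22d3, 4 rose and 1 fell with LPS and 2 rose with TSA. Klf9, another glucocorticoid-induced factor, fell with LPS by 1.03 (adjusted p = 0.00674) and rose with TSA by 0.98 (SE 0.21, adjusted p = 0.00398). By contrast, Nfkbia rose with LPS by 3.94, and Mt2 rose with LPS by 0.98 and with TSA by 1.30. Of 9 purine, lipid and cannabinoid receptors other than Ptger2, 3 rose and 2 fell with LPS and 2 rose and 1 fell with TSA. Cnr2, the cannabinoid receptor CB2, fell by 2.29 with LPS, while Lpar1 and P2ry14 rose by 2.89 and 2.21.

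The other lists held none of the 75 genes. Of 21 DNA damage and repair genes 8 fell and 1 rose with LPS, while 2 rose and 2 fell with TSA. Chek2, a checkpoint kinase, fell by 2.78 with LPS, and its TSA term was 0.29 (SE 0.31, adjusted p = 0.56). Gadd45g fell by 2.98 with LPS and by 0.84 with TSA, while Gadd45b rose by 2.18 with LPS. Xpa and Apex1 rose with TSA by 1.02 and 0.89. Of 8 clock and PAR bZIP factors 2 fell with LPS and 1 rose with TSA. Of 19 macrophage transcription factors 5 rose and 2 fell with LPS, and 1 rose and 4 fell with TSA. Pparg, a lipid-sensing receptor, fell by 2.91 with LPS and had a TSA term of -0.09 (SE 0.23, adjusted p = 0.83). Cebpb rose by 2.31 with LPS. The largest TSA terms of this list were those of Nr1h3, Atf3 and Tfec, which fell with TSA by 1.34, 1.18 and 1.03. Of 28 lysosome and endosome genes 1 fell with LPS and 6 fell with TSA, and of 18 phagocytic and scavenger receptors 4 rose and 2 fell with LPS and 3 fell with TSA. Of 16 RNA processing genes 1 rose and 1 fell with each agent. Of 11 genes of TGF-beta signalling 1 rose with LPS and 1 fell with TSA, and of 9 phosphoinositide genes 2 rose and 1 fell with LPS.

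The threshold lay in a continuous range. Just inside the TSA criterion, by the weaker of both pairs, were Mxd4 (1.41-fold), Cfap410 (1.42-fold) and Cd200r1 (1.42-fold), and just outside were Sh3glb2 (1.38-fold), Cul7 (1.38-fold) and Habp4 (1.38-fold). Just inside the LPS criterion were Pycard (1.7-fold), Rb1 (1.72-fold) and Cd320 (1.72-fold), and just outside Tmem138 (1.68-fold), Pigp (1.68-fold) and Cdc26 (1.67-fold). Nearest to the level criterion in No treatment were Hmg20b (1.04 units), Hivep3 (1.09 units) and Chst12 (1.199 units) inside, and Bcl6 (0.962 units), Misp3 (0.945 units) and Tbc1d8 (0.799 units) outside. Deptor, Lbh, Hivep3 and Pnkd have a second probe, and none of these 4 met the criteria. The second probe of Hivep3 read 1.21 in TSA + GW3965 + LPS and 2.41 in TSA + LPS, against 1.63 in GW3965 + LPS and 1.52 in LPS, and 0.880 in TSA against 1.03 in No treatment. It therefore did not show the lower level with LPS. The second probe of Pnkd read 2.25 in GW3965 + LPS and 1.77 in LPS against 1.54 in No treatment. That of Lbh read 0.591 in GW3965 + LPS and 0.477 in LPS against 0.567 in No treatment. Neither showed the fall of the probe that met the criteria, and the second probe of Deptor was under the floor on 5 arrays.

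The cells carried macrophage transcripts. Of 12 macrophage markers on the array 11 were at or above the array median on all 6 arrays. The exception was Adgre1, which read 0.730 in No treatment, below the median, and 1.06 to 2.84 on the other 5 arrays. The sum of the 12 ran from 2579 in TSA to 3662 in No treatment, most of it from Lyz1, Lyz2 and Ctss. Lyz2 read 729 to 1050 units. The summed level of 7 neutrophil markers was 74.3 in TSA + GW3965 + LPS, 83.0 in TSA + LPS, 52.3 in GW3965 + LPS, 51.3 in LPS, 38.0 in TSA and 24.0 in No treatment. Most of it was S100a8. Elane was under the floor on 5 arrays, while Prtn3 read 4.24 in TSA and was under the floor on the 3 arrays without TSA. Sums ran from 56.9 to 67.4 for 8 T and NK cell markers. Of these, Gzma (21.3 to 39.6), Il7r (23.8 to 41.3) and Cd4 (1.17 to 2.16) were at or above the array median on all 6 arrays. Cd3e was under the floor on all 6 arrays. The sum ran from 11.2 to 15.4 for 7 B cell markers, 4 of them at or above the median on all 6 arrays. It ran from 6.65 to 9.17 for 8 eosinophil and mast cell markers and from 9.79 to 16.5 for 8 mesothelial and fibroblast markers. In each of these 2 lists, 2 markers were at or above the median on all 6 arrays. The part of other cells in the levels of the 75 genes was not tested.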

How the data were processed

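Each of the 6 samples is 1 biotin-labelled 1-colour array. The deposited values are intensity on a linear scale, with nearly equal medians on all arrays, so that some scaling between arrays was already done. The method of scaling, background handling and scanner software are not given in the sources used here. The table held 10076 probes, of which 8983 carried 1 gene symbol, 1 several and 1092 none in the platform annotation, and gene IDs of all 75 members matched RefSeq (GRCm38.p6) under the same symbols.

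Values were floored at each array's 25th percentile and log2-transformed. The choice of genes was made per probe. The GW3965 term came from limma 3.58.1 in R 4.3.3 (lmFit, eBayes with an intensity trend, 2 residual and 16.9 prior degrees of freedom), with p-values two-sided and adjusted over 5080 genes, each read from its probe with the highest mean. No group has a replicate array, so the 2 residual degrees of freedom are departures from additivity, between TSA and LPS and between TSA and GW3965. In these departures, noise and a true interaction cannot be told apart, and both count as error. The SE and p-values of all terms therefore do not measure technical or biological variation between replicates. No label speaks of separate cultures or animals. The fit was tested on simulated additive data, in which it called 70% of planted 2-fold and 100% of planted 4-fold GW3965 differences. These data held no TSA effect and no departure from additivity, and their spread was set by hand and not taken from the arrays. They therefore do not give the error rate of the fit here, or its rate of finding true differences. LPS and TSA terms of the members are not reported, since the choice used them, and lists are counted without members. The choice also bounds the members' GW3965 terms, which are a description. Recovery is a ratio of log2 differences.

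The members and lists were chosen with earlier results of these data known. Groups by function were set after the values were seen. Named in full were the 10 largest falls and gains, the 5 highest and lowest against No treatment in TSA, the 5 most and least complete recoveries, the 3 GW3965 terms farthest from 0 each way and members of the lists, with others described beside them. From the other genes of a list, those named are among the 3 with the largest LPS or TSA term. Genes next to a threshold are named with the value that the threshold uses. Motifs were searched on both strands of 1 RefSeq promoter per gene. Alternatives covered scaling, floor, thresholds, level filter, prior variance, model terms, probes and left-out arrays. Figures were drawn with matplotlib 3.10.9.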

Additional observations from a re-analysis of the deposited data

Results flagged for a closer look

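TSA went with lower levels without LPS and higher levels with it, by at least 1.4-fold each way, in 3 of the 75 genes. Of the 4293 named probes at or above the No treatment median, 17.8% were at least 1.4-fold lower in TSA. So were 119 of the 241 probes that met the LPS criterion but missed the TSA criterion. High readings in No treatment entered the choice, which favours a TSA reading below them. In TSA against No treatment the log2 difference was -0.94 for Lta, -0.65 for Cd200r1 and -0.52 for Tpra1. In the LPS pairs the mean log2 difference with TSA was 0.73 for Lta, 0.61 for Cd200r1 and 0.89 for Tpra1, where a positive value was required by the choice of genes. Each rests on 3 pairs of single arrays, and the difference between the TSA effects was not tested.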

How the results depend on the processing

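The 75 genes became 90 after quantile normalization (70 shared), 81 after cyclic loess (69 shared) and 56 when the floor was raised to the array median (56 shared). They became 53 with an LPS fold of at least 2, 46 with a TSA fold of at least 1.7, 111 with a TSA fold of at least 1.2 and 96 with no level filter. Quantile normalization moved the median LPS difference of the 4293 probes from -0.02 to -0.21 and cyclic loess to -0.11, and the median of the 75 genes was then -1.64 and -1.57. The count at least 1.4-fold higher in TSA than in No treatment was 38, and 33 and 35 after quantile normalization and cyclic loess. The count at least 1.4-fold lower was 3, and 5 after quantile normalization and 4 after cyclic loess. Both floors left these counts as they were, and none of the called differences changed sign under the 4 scaling and floor settings. With each of 4 LPS arrays left out in turn, the fit keeps fewer than the 2 residual degrees of freedom of the full fit. Counts over all genes are not given for these fits, so no call is read from them. Ptger2 passed the threshold without TSA + LPS, for which the cause was not tested. Its GW3965 term ran from 0.41 to 1.19 over 11 settings. In the other 8 settings, which kept all arrays, 0 of the members rose and 0 fell with GW3965, within what the choice allows. No paired analysis was possible because each group has 1 array and the labels carry no replicate numbers. Depth does not apply to arrays, and readings near the floor limit the folds of dim genes such as Tpra1 and Cdo1.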

Other observations

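Other genes of leukotriene handling, looked up after the values of Lta4h and Ltc4s were seen, had patterns of their own. Alox5ap, which presents arachidonic acid to 5-lipoxygenase, read 126 in TSA + GW3965 + LPS and 117 in TSA + LPS, against 89.97 in GW3965 + LPS and 73.6 in LPS, and 130 in TSA against 102 in No treatment. Pla2g4a, the phospholipase that releases arachidonic acid, read 23.9 in TSA + GW3965 + LPS and 28.1 in TSA + LPS, against 15.7 in GW3965 + LPS and 20.5 in LPS, and 13.4 in TSA against 4.37 in No treatment. Alox5ap was lower in both GW3965 + LPS and LPS than in No treatment, by less than the LPS criterion asks, and lay above No treatment in both arrays with TSA and LPS. Pla2g4a was higher with LPS. Cysltr1, a receptor for cysteinyl leukotrienes, read 1.93 in TSA + GW3965 + LPS and 2.06 in TSA + LPS, against 0.650 in GW3965 + LPS and 0.865 in LPS, and 1.58 in TSA against 0.619 in No treatment. It was higher with TSA in all 3 pairs.

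Another 5 genes met every value criterion and were left out by symbol: Gpr162, Tnfrsf12a, H1f2, Gpr35 and Map4k1. Of these, Tnfrsf12a, the receptor for TWEAK, read 0.919 in TSA against 1.98 in No treatment, while Gpr162 read 5.39 against 2.33. A further 8 probes with no gene symbol met the value criteria.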
